A study of Mus musculus with 2 samples.

Results

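Ribosomal protein genes were compared between left-right organizer (LRO) cells and the cells around them in early mouse embryos. The members were chosen by symbol alone: Rpl and Rps symbols with a number, the stalk genes Rplp0, Rplp1 and Rplp2, and Rpsa gave 76 cytosolic genes, and Mrpl and Mrps symbols gave 78 mitochondrial genes. These 154 genes were part of 17586 gene symbols in the deposited table and were covered by 194 transcripts. 1 library came from GFP-positive LRO cells and 1 from GFP-negative non-LRO cells, both sorted from FOXJ1-EGFP embryos of C57BL/6 x 129 SvEv background with 0 to 4 somites. The FOXJ1 promoter drives EGFP in this line, so the sort followed FOXJ1 promoter activity, and both pools came from embryos of this line. Each pool combined several embryos, the pools came from separate sets of embryos, and the LRO pool held fewer cells and less RNA.

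The cytosolic ribosome of mammals is built from a small subunit, which reads the mRNA, and a large subunit, which joins amino acids. Most of its proteins are needed in equal amounts, and their mRNAs are among the most abundant in growing cells. Mitochondria hold a separate ribosome that makes the membrane subunits of the respiratory chain, and all of its proteins are encoded in the nucleus and imported. The organizer is a transient ciliated pit at the embryonic midline whose leftward fluid flow sets the left-right axis, and loss of single ribosomal proteins is known to change axial patterning or blood formation in mice without stopping all translation.

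The cytosolic genes share a feature that the symbol rule did not use: their mRNAs are known as TOP mRNAs because they begin in a run of pyrimidines, which couples their translation to nutrient signals. The 30 bases that centre on the annotated start are shown for 7 members, chosen because results turn on them or because they carry a clear run. The longest pyrimidine run in each window is in capitals, and the start is base 16 of each line. Sequences are from RefSeq, build GRCm38.p6.
Rpl38, chr11:114668565-114668594, plus strand: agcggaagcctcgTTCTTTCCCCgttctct
Rps26, chr10:128626492-128626521, minus strand: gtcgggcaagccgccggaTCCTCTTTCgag
Rplp2, chr7:141447636-141447665, plus strand: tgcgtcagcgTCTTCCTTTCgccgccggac
Rps6, chr4:86857353-86857382, minus strand: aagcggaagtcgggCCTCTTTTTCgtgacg
Rpl13a, chr7:45128731-45128760, minus strand: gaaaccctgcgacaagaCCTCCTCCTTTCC
Mrps7, chr11:115604125-115604154, plus strand: tgtgggcagCCCTCCgaggtcctgacagcg
Mrpl24, chr3:87919529-87919558, plus strand: ttcctgTTTCCTgtccattttgtagcaacg
The 5 cytosolic genes shown had runs of 9 to 13 pyrimidines in the window, and both mitochondrial genes had runs of 6. A clear run was 1 reason for the choice, so these 7 windows cannot compare the 2 classes. Promoter windows were at hand for 56 of the cytosolic and 69 of the mitochondrial genes. The letters CTTTCC stood within 15 bases before to 30 bases after the start, on the sense strand, in 17.9% of the cytosolic genes, 2.9% of the mitochondrial genes and 2.34% of 17492 protein-coding genes. CTCTTT stood there in 17.9%, 1.45% and 1.64% of the same sets. The ETS-type motif CCGGAAG was frequent in both classes: on either strand of the 300-base window it was found in 41.1% of cytosolic and 37.7% of mitochondrial genes, beside 12.9% of all. AAGATGG, the core of YY1 sites, was found in 16.1%, 18.8% and 7.18%, and the TATA box TATAAA in 10.7%, 7.25% and 14.8%. CTCTTT and CTTTCC can overlap each other, and so can CCGGAAG and AAGATGG, and a match is a run of letters and not a measured site.

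Every one of the 154 genes was read in both libraries. The lowest value was 65 reads for an LRO gene (Mrpl48) and 96 reads for a non-LRO gene (Mrps34). Levels are given as RPKM, reads scaled to transcript length and library size, summed over the transcripts of a symbol. The median cytosolic gene had 240.7 RPKM in LRO cells and 328.8 RPKM in non-LRO cells, and the median mitochondrial gene had 7.51 RPKM in LRO cells and 11.7 RPKM in non-LRO cells. Members kept much of their order of level between the libraries, with a Spearman rho of 0.83 across the 76 cytosolic and 0.84 across the 78 mitochondrial genes, beside 0.91 across the 9894 well-read symbols, those with 50 reads or more in the LRO and in the non-LRO library. These are descriptions across genes that share 2 libraries.

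The highest level belonged to Rpl41, which encodes the smallest ribosomal protein, with 1603 RPKM in LRO cells and 1574 RPKM in non-LRO cells. Rpl10a followed with 766 RPKM in LRO cells and 1188 RPKM in non-LRO cells. Rpl41 was thus near equal between the libraries, and Rpl10a had the lower level in LRO cells. Among mitochondrial genes Mrpl30 had 45.5 RPKM in LRO cells and 35.3 RPKM in non-LRO cells, Mrpl18 had 45.3 and 50.2 RPKM in the same order, and Mrps21 had 34.2 RPKM in LRO cells and 41.4 RPKM in non-LRO cells. The lowest mitochondrial levels in LRO cells were those of Mrpl1 at 2.03 RPKM, against 5.05 RPKM in non-LRO cells, and of Mrpl45 at 2.05 RPKM, against 6.20 RPKM in non-LRO cells. Mrps25, the lowest of the small subunit, had 2.26 RPKM in LRO cells and 4.15 RPKM in non-LRO cells. Some low cytosolic values go with long table entries. Rps15a had 2553 reads in LRO cells and 3698 reads in non-LRO cells, but its only listed transcript spans 5134 bases, which gives 16.4 and 29.5 RPKM. Rps20, listed with 3446 bases, had 5072 LRO and 4762 non-LRO reads, or 48.6 and 56.6 RPKM.

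**Figure D1:**
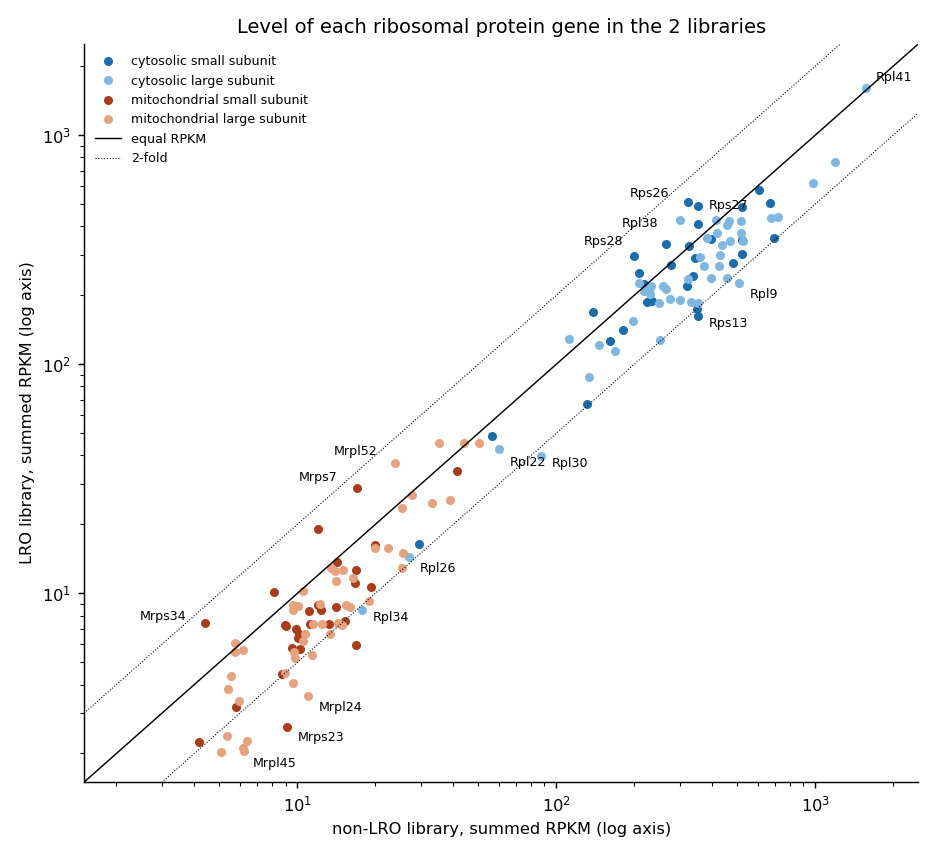
Summed RPKM of the 154 ribosomal protein genes in the LRO library (vertical, log axis) and in the non-LRO library (horizontal, log axis), 1 point per gene, coloured by ribosome and subunit. The solid line marks equal levels and the dotted lines a 2-fold difference; most points of both clouds lie below the solid line, Rpl41 lies on it at 1603 and 1574 RPKM, and Rps26, Rps27, Rps28, Rpl38, Mrps7 and Mrps34 lie above it.

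Cytosolic members took 2.98% of the 16672852 assigned reads in LRO cells (exact binomial 95% interval 2.97% to 2.98%) and 3.97% of the 13418798 assigned reads in non-LRO cells (3.96% to 3.98%). Mitochondrial members took 0.177% in LRO cells (0.175% to 0.179%) and 0.240% in non-LRO cells (0.237% to 0.242%). The 45S rRNA precursor entry Rn45s held 23.9% of assigned LRO reads and 17.6% of assigned non-LRO reads. Without it the cytosolic share was 3.91% in LRO cells and 4.82% in non-LRO cells, and the mitochondrial share was 0.233% and 0.291%. The share of both classes was thus lower in the LRO library with either denominator. There was 1 library per group, so no difference here has a replicate check and no p-value is given, and the intervals reflect counting error alone.

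Reads were scaled to the library totals behind RPKM and divided, LRO over non-LRO, with an exact 95% interval. A gene passed the 2-fold rule as higher when the lower bound exceeded 2, and as lower when the upper bound was under 0.5. No cytosolic gene passed as higher and 3 of 76 passed as lower, while no mitochondrial gene passed as higher and 6 of 78 passed as lower. Over all symbols 3.97% passed as higher and 12.3% as lower, and over the 9894 well-read symbols, a class that holds every member, 2.22% were higher and 6.99% lower. These counts are 3.95% of the cytosolic and 7.69% of the mitochondrial genes. At a 1.5-fold bound 1 cytosolic and 1 mitochondrial gene were higher and 22 and 26 were lower, which is 28.9% and 33.3% of the classes, beside 7.06% higher and 22.0% lower of all symbols and 5.87% higher and 19.8% lower of the well-read ones. At 2-fold the share of lower genes was thus under that of both symbol sets in the cytosolic class. In the mitochondrial class it was near that of the well-read symbols. At 1.5-fold it was above both symbol sets in each class. Of 150 non-members over 100 RPKM in both libraries, a set nearer in level to the cytosolic class, 3 were lower and 2 higher at 2-fold. At 1.5-fold 8 of the 150 were lower and 18 higher. The counts depended on the scaling. With TMM factors 0 cytosolic genes and 1 mitochondrial gene (Mrps23) were lower, beside 6.45% of all symbols higher and 7.89% lower. With the median ratio 0 cytosolic and 2 mitochondrial genes were lower, beside 6.005% higher and 8.205% lower. Scaled to assigned reads without Rn45s and Lars2, 0 cytosolic and 5 mitochondrial genes were lower, beside 5.061% higher and 9.775% lower.

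The median log2 ratio was -0.38 for cytosolic and -0.59 for mitochondrial genes, against -0.31 for the well-read symbols. Relative to that shift the cytosolic class stood at -0.07 and the mitochondrial class at -0.29. The 150 non-members over 100 RPKM in both libraries, nearer in level to the cytosolic class, had a median of -0.01 before that shift, above the cytosolic median. By subunit the medians were -0.25 for the 30 small and -0.45 for the 46 large cytosolic genes, and -0.58 for the 29 small and -0.61 for the 49 large mitochondrial genes. The quartiles spanned 0.56 log2 units in the cytosolic class and 0.69 in the mitochondrial class, against 0.80 in the well-read symbols. The large mitochondrial subunit alone spanned 0.83, and 150 non-members over 100 RPKM in both libraries spanned 0.61. Summed over each class, the ratio of reads was 0.750 for cytosolic (interval 0.747 to 0.753) and 0.741 for mitochondrial genes (0.729 to 0.753). In these bulk libraries, fewer cells of a type and less RNA per cell cannot be told apart.

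**Figure D2:**
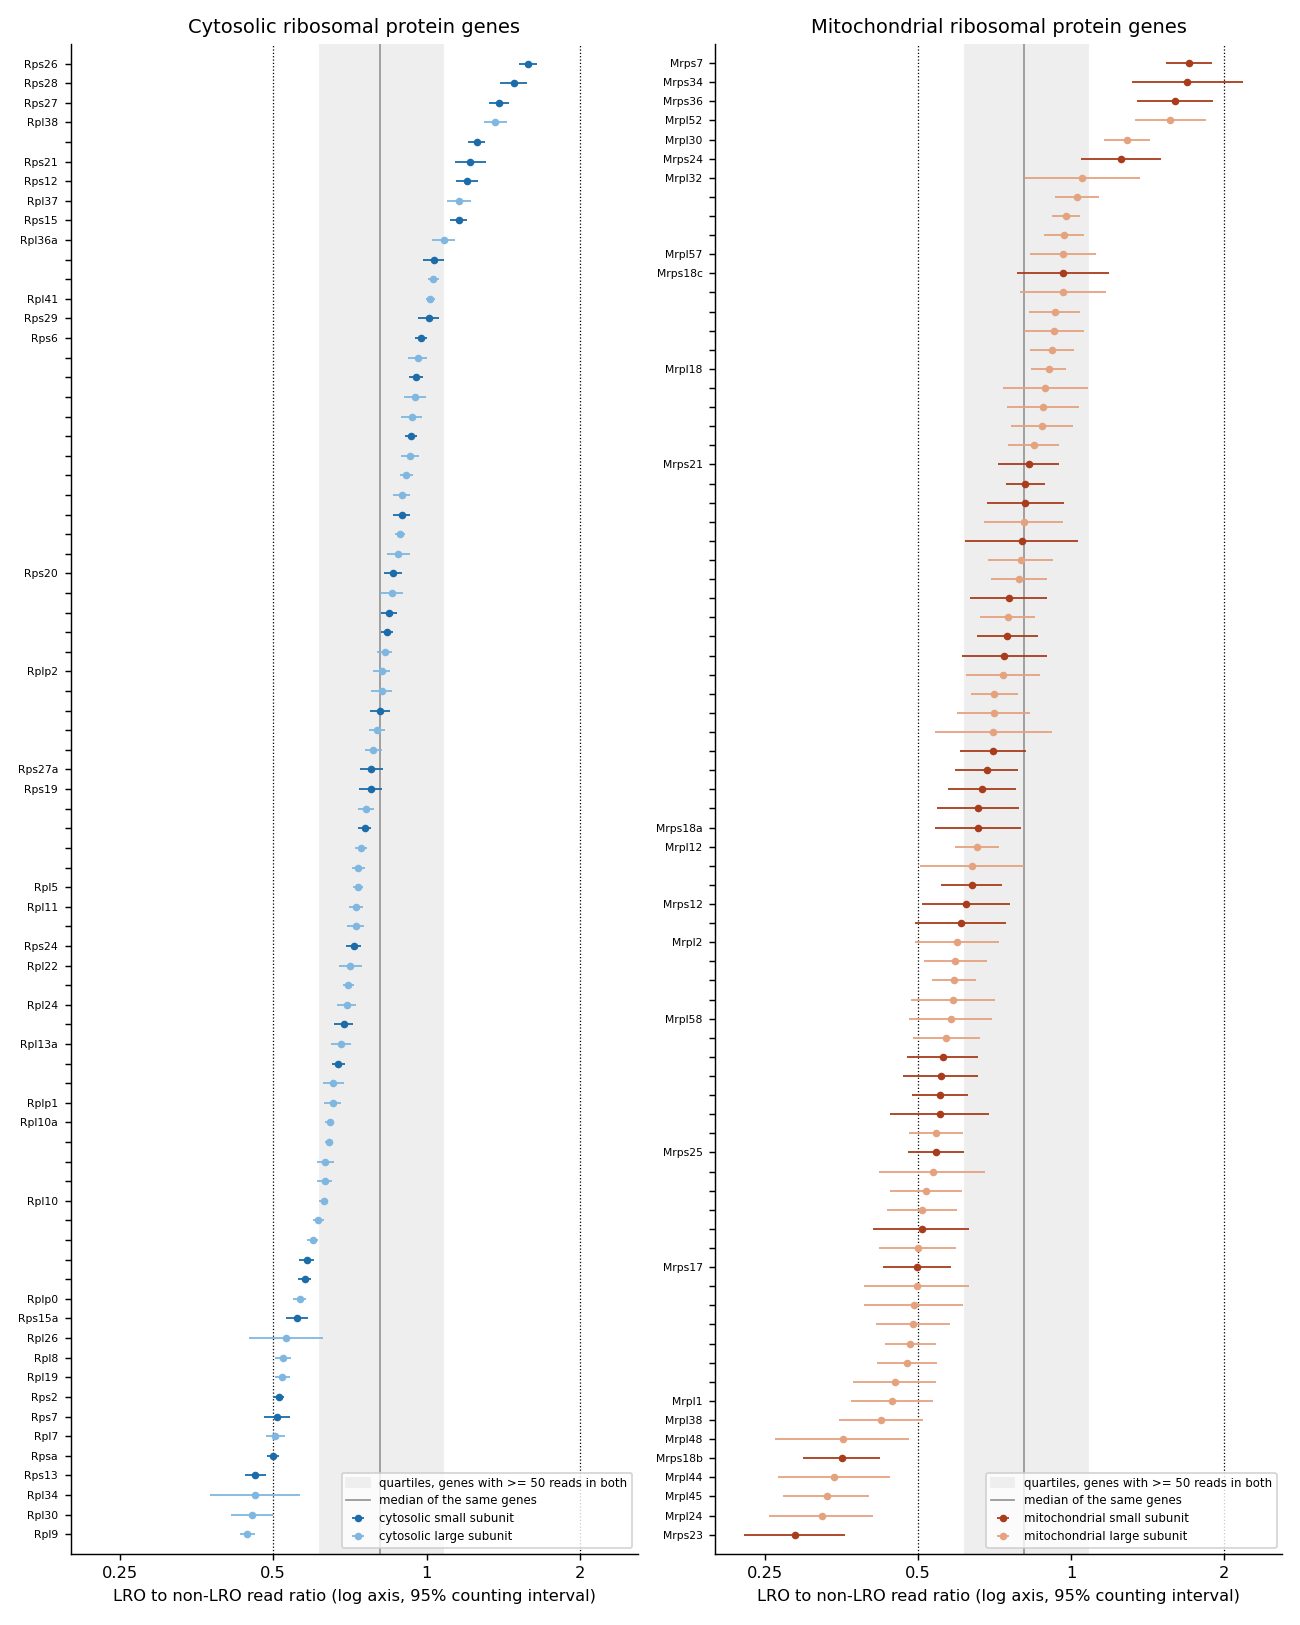
LRO to non-LRO read ratio of each cytosolic (left) and mitochondrial (right) ribosomal protein gene on a log axis, with exact 95% counting intervals, sorted by ratio, with the genes named in the text labelled. The grey band and line give the quartiles and the median of the 9894 well-read symbols, and dotted lines mark ratios of 0.5 and 2; in the cytosolic panel values run between 0.445 for Rpl9 and 1.58 for Rps26, in the mitochondrial panel between 0.287 for Mrps23 and 1.70 for Mrps7.

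In the small cytosolic subunit, Rps26, Rps28 and Rps27 had the highest ratios and Rps13, Rpsa and Rps7 the lowest. Rps26, whose protein lies where mRNA leaves the ribosome, had 6924 reads and 510 RPKM in LRO cells, against 3526 reads and 322.5 RPKM in non-LRO cells. Its ratio of 1.58 (1.52 to 1.65) was the only one of the class past the 1.5-fold bound as higher. Rps28, a neighbour of Rps26 on the assembled subunit, had 2931 LRO and 1592 non-LRO reads, a ratio of 1.48 (1.40 to 1.58). Rps27, a zinc-finger protein, had 5173 reads in LRO cells and 2999 reads in non-LRO cells (1.39, 1.33 to 1.46). Rps12, Rps15 and Rps21 also had intervals wholly above 1, with ratios of 1.16 to 1.22. At the other end Rps13 was lower, with 2870 reads and 163 RPKM in LRO cells, against 5015 reads and 353 RPKM in non-LRO cells (0.461, 0.441 to 0.483).

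Rpsa, the laminin-receptor protein whose human gene is mutated in isolated congenital asplenia, had 9823 reads in LRO cells and 15858 reads in non-LRO cells, and its interval reached just past the bound (0.499, 0.487 to 0.512). Rps7 had 1947 LRO and 3085 non-LRO reads (0.509, 0.480 to 0.539). Rps2, with 10750 LRO and 16918 non-LRO reads, had a ratio of 0.512 (0.4999 to 0.525), so that these 3 genes sat just outside the 2-fold rule. Rps6, the substrate of S6 kinase, was close to equal with 11443 LRO and 9471 non-LRO reads (0.974, 0.948 to 1.001). Rps19, the gene most often mutated in Diamond-Blackfan anaemia, had 2674 LRO and 2777 non-LRO reads (0.776, 0.736 to 0.819). Rps27a, made as a fusion to ubiquitin, had a ratio of 0.779 (0.740 to 0.821).

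In the large cytosolic subunit Rpl38 had the highest ratio. Rpl38 is known in mice for its part in translating Hox mRNAs and in forming the axial skeleton. It had 3895 reads and 427 RPKM in LRO cells, against 2300 reads and 300 RPKM in non-LRO cells, a ratio of 1.37 (1.30 to 1.44). Rpl37 followed with 3396 LRO and 2363 non-LRO reads (1.16, 1.10 to 1.22), then Rpl36a with 3344 LRO and 2497 non-LRO reads (1.08, 1.03 to 1.14). The pyrimidine run of Rpl38 and that of Rps26 are printed above, and both genes lie among the shortest of their subunits, at 310 and 448 bases.

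Rpl9 and Rpl30 passed the 2-fold rule as lower. Rpl9 had 4946 reads and 225 RPKM in LRO cells, against 8968 reads and 507 RPKM in non-LRO cells (0.445, 0.429 to 0.460). Of its 50-base windows, 93.3% also occurred in transcripts of other genes. Rpl30 had 679 LRO and 1207 non-LRO reads (0.454, 0.412 to 0.499), a call that ended once the reads of a second entry at the same place, Gm12191, were added. Rpl34 had a similar ratio at low depth, with 151 LRO and 264 non-LRO reads (0.461, 0.375 to 0.565). Rpl7, Rpl8 and Rpl19 lay just outside the rule, at 0.505, 0.523 and 0.521. Rpl8 shares few windows with other genes, 7.9%, and had 4821 LRO and 7428 non-LRO reads.

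Further large-subunit members with known roles had ratios of 0.628 to 0.734. Rpl5 and Rpl11, which with 5S rRNA bind Mdm2 when ribosome assembly is disturbed, had almost the same ratio: Rpl5 had 14421 LRO and 15832 non-LRO reads (0.734, 0.718 to 0.751), and Rpl11 had 6748 LRO and 7489 non-LRO reads (0.726, 0.703 to 0.751). Rpl10, which joins late to complete the subunit, had 14823 LRO and 19022 non-LRO reads (0.628, 0.615 to 0.642). Rpl24, mutated in the Belly spot and tail mouse, had 3952 LRO and 4571 non-LRO reads (0.697, 0.668 to 0.727). Rpl22, an RNA-binding protein needed for T-cell development, had 2813 LRO and 3200 non-LRO reads (0.709, 0.673 to 0.746). None of these 5 passed the 2-fold rule, and Rpl10 passed the 1.5-fold bound as lower.

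The stalk that recruits elongation factors is formed by Rplp0 with Rplp1 and Rplp2. Rplp0 had 7677 LRO and 10987 non-LRO reads (0.563, 0.547 to 0.580). Rplp1 had 4892 LRO and 6030 non-LRO reads (0.654, 0.630 to 0.679). Rplp2 had 5637 LRO and 5568 non-LRO reads (0.816, 0.786 to 0.847). The intervals of the 3 stalk genes do not overlap each other, although their proteins are joined in 1 complex, and only Rplp0 passed the 1.5-fold bound as lower. Their summed ratio was 0.650 (0.637 to 0.663).

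Of 3 ribosomal proteins that carry other symbols 1 was lower. Rack1, a scaffold on the head of the small subunit, was lower, with 5268 reads and 139 RPKM in LRO cells, against 9765 reads and 319 RPKM in non-LRO cells (0.435, 0.421 to 0.450). Fau, a fusion of Rps30 to a ubiquitin-like protein, had 3592 LRO and 2864 non-LRO reads (1.01, 0.962 to 1.06). Rps3a1, the usual mouse symbol for Rps3a, had 6181 LRO and 9963 non-LRO reads and a ratio of 0.5001 (0.484 to 0.516). Of the paralogs, Rpl22l1 (0.848), Rpl36al (0.916), Rps27l (0.868) and Rpl7l1 (0.789) stayed within the range of the class, and Rps27rt lay above it at 1.76 (1.68 to 1.85). Rps4l had few reads, 136 in LRO cells and 248 in non-LRO cells, with a ratio of 0.442 (0.356 to 0.547). None of the 7 measured paralogs passed the 2-fold rule, and Rpl3l, Rpl10l and Rpl39l were not analysed here.

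Ribosomal protein genes have many processed copies in the genome, and 44 of the 76 cytosolic members, against 5 of the 78 mitochondrial ones, shared over 50% of their 50-base windows with transcripts of other genes. At 4 members the table listed a copy under its own symbol on the span of the parent gene, although RefSeq places each copy on another chromosome. Stretches of 30 bases from parent and copy are shown because they let the near identity of each pair be read directly, and a base that differs is in capitals. They were read from the GENCODE M21 transcripts of GRCm38, on the sense strand, and each parent and copy is named by the chromosome of its table entry.
Rpl30, chromosome 15: cgtgctgggctacaaGcagactctgaagat
Gm12191, chromosome 15: cgtgctgggctacaaAcagactctgaagat
Rpl26, chromosome 11: agttcaggttgttcgCggacactacaaagg
Gm15772, chromosome 11: agttcaggttgttcgTggacactacaaagg
Rpl34, chromosome 3: gaaagcacctaaatcTgcatgtggcgtgtg
Rpl34-ps1, chromosome 3: gaaagcacctaaatcCgcatgtggcgtgtg
Rps27, chromosome 3: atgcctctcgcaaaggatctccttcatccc
Rps27rt, chromosome 3: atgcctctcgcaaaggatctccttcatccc
Over the aligned transcripts, Gm12191 differed from Rpl30 at 1 of 348 bases, Gm15772 from Rpl26 at 2 of 438, Rpl34-ps1 from Rpl34 at 2 of 354, and Rps27rt from Rps27 at 0 of 341.

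The copy entry took most of the reads at 3 of the 4 places. At Rpl30 the gene entry held 11.5% of the LRO and 18.6% of the non-LRO reads of the pair, and Gm12191 had 5241 LRO and 5299 non-LRO reads. The sum of both entries had a ratio of 0.734 (0.708 to 0.760), close to the median of the large subunit and outside the 2-fold rule. At Rpl26 the gene entry had 236 LRO and 359 non-LRO reads, Gm15772 had 1373 and 1805 in that order, and the sum gave 0.599 (0.562 to 0.640). At Rpl34 the copy had 1615 LRO and 2145 non-LRO reads, and the sum gave 0.591 (0.555 to 0.629). At Rps27 the copy had 4981 LRO and 2278 non-LRO reads, and the sum of 10154 LRO and 5277 non-LRO reads gave 1.55 (1.5 to 1.604). With the sums in place, 2 of 76 cytosolic genes passed the rule as lower, Rpl9 and Rps13, beside 12.32% of all symbols. Rps27 then stood beside Rps26 at the top of the small subunit.

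**Figure D3:**
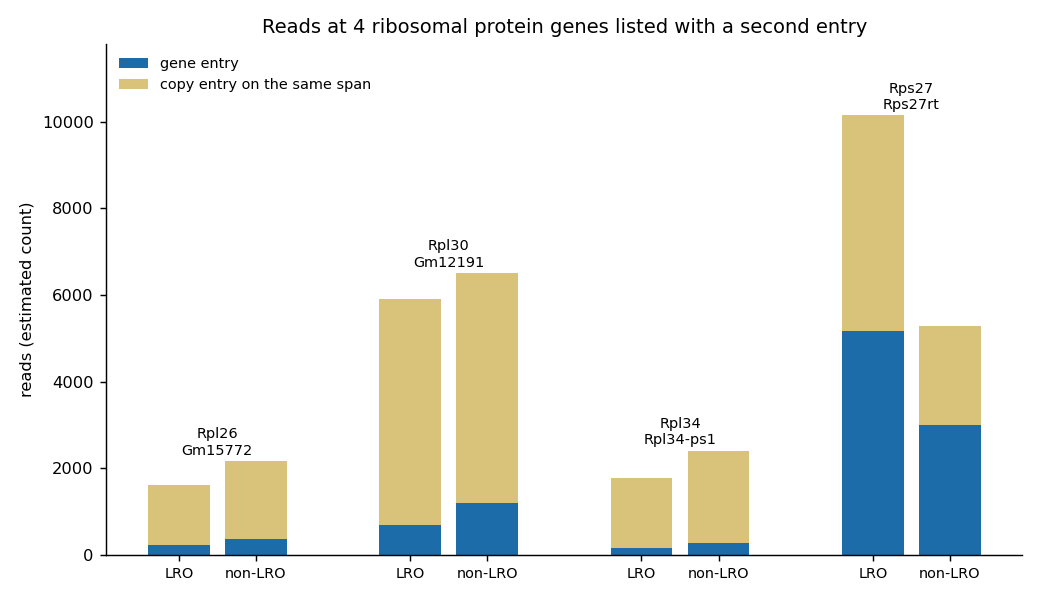
Reads (estimated counts) at the 4 cytosolic ribosomal protein genes whose span in the table also holds a copy entry, LRO left and non-LRO right in each pair; blue is the gene entry and tan the copy entry. The copy holds most of the bar at Rpl26, Rpl30 and Rpl34 and about as much as the gene at Rps27, where the LRO bar (10154 reads) is higher than the non-LRO bar (5277 reads).

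Among the small-subunit genes of the mitochondrial ribosome, Mrps7, Mrps34 and Mrps36 were highest and Mrps23, Mrps18b and Mrps17 lowest. Mrps7, whose bacterial counterpart starts the folding of the head of the subunit, had 1159 reads and 28.9 RPKM in LRO cells, against 549 reads and 17.0 RPKM in non-LRO cells (1.70, 1.54 to 1.89). It was the only mitochondrial gene past the 1.5-fold bound as higher. Mrps34 had 201 LRO and 96 non-LRO reads, and its interval was wide (1.69, 1.32 to 2.18). Mrps36 had 414 LRO and 209 non-LRO reads (1.60, 1.35 to 1.90), and its protein is now known as a part of the oxoglutarate dehydrogenase complex. Mrps24 was the 1 other small-subunit gene with an interval above 1, with 309 LRO and 199 non-LRO reads (1.25, 1.04 to 1.503).

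Mrps23 was lower, with 105 reads and 2.62 RPKM in LRO cells, against 295 reads and 9.10 RPKM in non-LRO cells (0.287, 0.227 to 0.360), the lowest ratio of all 154 genes. Mrps18b, one of the Mrps18 paralogs, was lower with 190 LRO and 432 non-LRO reads (0.355, 0.297 to 0.422). Of its 50-base windows, 63.7% also occurred in transcripts of other genes. The paralogs of Mrps18b did not pass: Mrps18a had 192 LRO and 236 non-LRO reads (0.656, 0.539 to 0.797), and Mrps18c had 208 LRO and 174 non-LRO reads (0.964, 0.784 to 1.19). The 3 intervals of this family overlap only between Mrps18a and Mrps18c. Mrps17 had 275 LRO and 445 non-LRO reads (0.498, 0.427 to 0.580), and Mrps12, whose protein lines the decoding centre, had 181 LRO and 235 non-LRO reads (0.621, 0.509 to 0.757).

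In the large mitochondrial subunit, 4 of 49 genes were lower. Mrpl24 had 102 reads and 3.55 RPKM in LRO cells, against 254 reads and 10.9 RPKM in non-LRO cells (0.324, 0.255 to 0.409). Mrpl45, which lies at the exit of the peptide tunnel beside the inner membrane, had 151 LRO and 368 non-LRO reads (0.331, 0.272 to 0.401). Mrpl44, a protein with an RNase III fold whose human gene is mutated in cardiomyopathy, had 91 LRO and 214 non-LRO reads (0.343, 0.265 to 0.440). Mrpl48 had 65 LRO and 147 non-LRO reads (0.356, 0.262 to 0.480). All 4 values in LRO cells rest on 151 reads or fewer, and no mitochondrial gene kept its call when the reads were divided by 10. Mrpl38 was just outside the rule, with 174 LRO and 331 non-LRO reads (0.424, 0.351 to 0.511).

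The highest ratios of that subunit belonged to Mrpl52, with 464 LRO and 239 non-LRO reads (1.57, 1.34 to 1.84), and Mrpl30, with 951 LRO and 596 non-LRO reads (1.29, 1.16 to 1.43). Mrpl32 came next at 1.05 with an interval across 1 (0.813 to 1.37). Mrpl12, the counterpart of the bacterial stalk protein, which also binds the mitochondrial RNA polymerase, had 732 LRO and 903 non-LRO reads (0.654, 0.592 to 0.721). Mrpl58, a peptidyl-tRNA hydrolase built into the subunit, had 198 LRO and 275 non-LRO reads (0.580, 0.481 to 0.699), and Mrpl57 had 389 LRO and 325 non-LRO reads (0.965, 0.831 to 1.12). Mitochondrial ribosomal proteins with other symbols gave ratios of 0.651 for Dap3, a GTP-binding protein of the small subunit, 0.623 for Ptcd3, 0.625 for Aurkaip1, 1.11 for Chchd1 and 1.12 for Gadd45gip1. None of these passed the rule.

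Some mitochondrial calls lie in genes that overlap another gene, and the library kit does not mark strand. Mrpl24 overlaps Rrnad1 on the opposite strand, which had 70 LRO and 265 non-LRO reads, and Mrpl48 overlaps Rab6a, which had 1796 LRO and 837 non-LRO reads. Mrps23 overlaps Cuedc1 on the same strand, with 118 LRO and 143 non-LRO reads. Reads from such partners cannot be told apart where they overlap, and their part in these ratios was not tested.

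Ratio and transcript length were negatively related in each of the 4 classes. The Spearman rho of ratio and transcript length was -0.64 across 30 small and -0.28 across 46 large cytosolic genes, and -0.36 across 29 small and -0.20 across 49 large mitochondrial genes. The 5 cytosolic genes under 400 bases (Rpl38, Rps28, Rps27, Rps29 and Rps21) had a median log2 ratio of 0.45, the 24 of 400 to 600 bases -0.17, and the 29 of 600 to 1000 bases -0.58. Genes that encode no ribosomal protein showed the same order at the short end: 17 under 400 bases had a median of 0.31, 132 of 400 to 600 bases -0.14, and 426 of 600 to 1000 bases -0.30. Over all 9740 well-read non-members the order did not hold: their rho was 0.10, opposite in sign to the members, and the 7344 genes of 2000 bases or more had a median of -0.28. The part of length in the ratios of the short members was not tested. Some longer members had high ratios, such as Mrps7 with 1324 bases and a log2 ratio of 0.77 and Mrps34 with 898 bases and 0.75. Base composition did not follow the ratio, with a rho of 0.08 for cytosolic and 0.05 for mitochondrial genes. All rho values are descriptions over genes of the same 2 libraries.

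**Figure D4:**
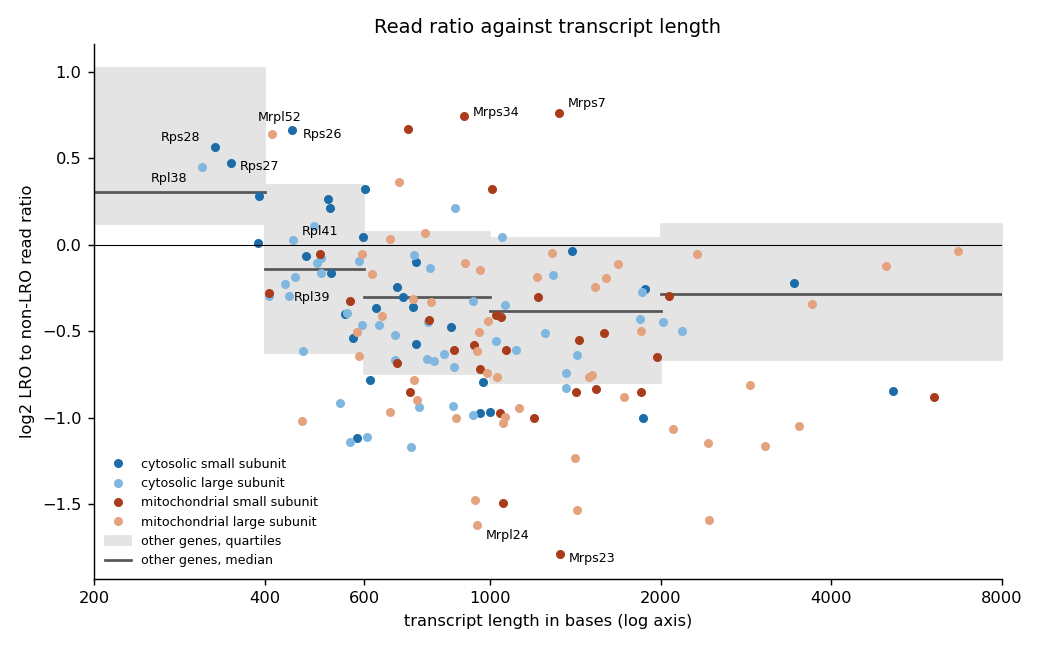
Log2 LRO to non-LRO read ratio (1 read added) of each ribosomal protein gene against transcript length in bases (log axis), coloured by ribosome and subunit. Grey boxes and bars give quartiles and medians of the other well-read genes in 5 length classes; the shortest members lie above 0 and the medians of other genes drop between the class under 400 bases (0.31) and the class of 1000 to 2000 bases (-0.38), then stand at -0.28 in the longest class.

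The table listed several transcripts for 22 members, and for 12 of them at least 1 transcript differed by 10 or more percentage points in its share of the gene's reads. Rps24, which is known for tissue-specific splicing of small 3' exons, had 9.81% of its LRO reads (9.09% to 10.6%) on the 837-base transcript and 20.0% of its non-LRO reads (19.1% to 20.98%), while the 857-base transcript held 89.6% in LRO cells and 79.6% in non-LRO cells. Rpl38 had 74.4% of its LRO reads on the shortest transcript of 285 bases, against 55.0% of its non-LRO reads. Rpl19 had 22.8% of its LRO reads on the 738-base transcript and 8.86% of its non-LRO reads. In Mrpl2 the 905-base transcript held 53.6% of 194 LRO reads (46.3% to 60.8%) and 17.9% of 262 non-LRO reads (13.5% to 23.1%). These shares come from the authors' split of reads among overlapping transcripts, so they are estimates and not counts of spliced reads.

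Other genes of translation and ribosome making were described through lists, which held 244 symbols that are not members, 2 of them higher and 18 lower. The 244 include the ribosomal proteins with other symbols and the paralogs given above, so Rack1 is among the 18. The lower genes are 7.38% of the 244, beside 6.99% of the well-read and 12.3% of all symbols. The higher genes are 0.82%, beside 2.22% of the well-read and 3.97% of all symbols. The lower count was 6 with TMM factors and 8 with the median ratio. Of 36 cytosolic initiation factors none was higher and 3 were lower, with a median log2 ratio of -0.46. Eif4a2, a paralog of the RNA helicase Eif4a1, had 1238 reads in LRO cells and 4204 reads in non-LRO cells (0.237, 0.223 to 0.253). Eif2b3 (0.386) and Eif2b4 (0.347), subunits of the exchange factor eIF2B, were the other two. Eif4g2 and Eif3a had the most reads of the list, with ratios of 0.731 and 0.814. None of 12 elongation and termination factors passed, and Eef1a1 had 49288 LRO and 45495 non-LRO reads (0.873, 0.862 to 0.885), with Eef2 at 0.9004. None of 16 other TOP mRNAs passed either, with a median of -0.39, and Npm1 among them had 73880 LRO and 51365 non-LRO reads (1.16, 1.15 to 1.17).

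Among 19 regulators of TOP mRNAs and ribosome making, 1 was higher: Mycn, a transcription factor that activates ribosomal genes, had 2735 reads and 34.8 RPKM in LRO cells, against 981 reads and 15.5 RPKM in non-LRO cells (2.25, 2.09 to 2.42). Pabpc1 and Eif4ebp2, the most read of that list, had ratios of 0.945 and 1.20. The median of the 19 was -0.35. RNA polymerase I genes had 1 lower of 17, Taf1a, a subunit of the promoter factor SL1, with 113 LRO and 265 non-LRO reads (0.344, 0.273 to 0.430). Polr1a, the largest subunit of the enzyme, had a ratio of 0.765 and Tcof1 0.868. The rRNA-processing list had 2 lower of 42, Imp3 of the U3 complex (0.323, 0.258 to 0.402) and Nat10, an acetyltransferase of 18S rRNA (0.345, 0.310 to 0.385), with Ncl at 0.757. Ribosome assembly had 3 lower of 46: Nop2 had 1111 LRO and 2431 non-LRO reads (0.368, 0.343 to 0.396), Nop16 had 413 and 880 in that order (0.378, 0.336 to 0.426), and Nle1 had 123 and 291 (0.341, 0.274 to 0.422). Mdn1 and Rsl1d1 had the most reads there, with ratios of 0.621 and 0.735.

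Genes that serve the mitochondrial ribosome were described the same way. Of 19 assembly factors none was higher and 4 were lower, at a median log2 ratio of -0.85. Mtg2, a GTPase of the large subunit, had 37 reads in LRO cells and 192 reads in non-LRO cells (0.155, 0.106 to 0.222). Fastkd2, which binds the large rRNA, had 101 LRO and 431 non-LRO reads (0.189, 0.151 to 0.235). Nsun4, an rRNA methyltransferase, had 21 LRO and 105 non-LRO reads (0.161, 0.0958 to 0.259), and Noa1, a GTPase of the small subunit, had 255 LRO and 485 non-LRO reads (0.424, 0.363 to 0.494). C1qbp, the most read of the list, had 1447 LRO and 2280 non-LRO reads (0.512, 0.479 to 0.547), and Dhx30 had a ratio of 0.689. Of 17 mitochondrial translation factors 2 were lower, Mtif2, the initiation factor (0.360, 0.310 to 0.417), and Guf1, a back-translocase (0.418, 0.354 to 0.493), with Lrpprc at 0.494 and Oxa1l at 0.738.

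Of 17 mitochondrial tRNA synthetases 2 were lower and 1 higher. Hars2 had 40 LRO and 205 non-LRO reads (0.157, 0.109 to 0.222), and Tars2 had 141 LRO and 339 non-LRO reads (0.335, 0.274 to 0.409). Lars2 was higher at 2.09 (2.08 to 2.10), but its 1012470 LRO and 390806 non-LRO reads are far above those of any other synthetase, of which Iars2 came next with 723 LRO and 705 non-LRO reads. The list's median was -0.34, close to that of the well-read symbols.

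**Figure D5:**
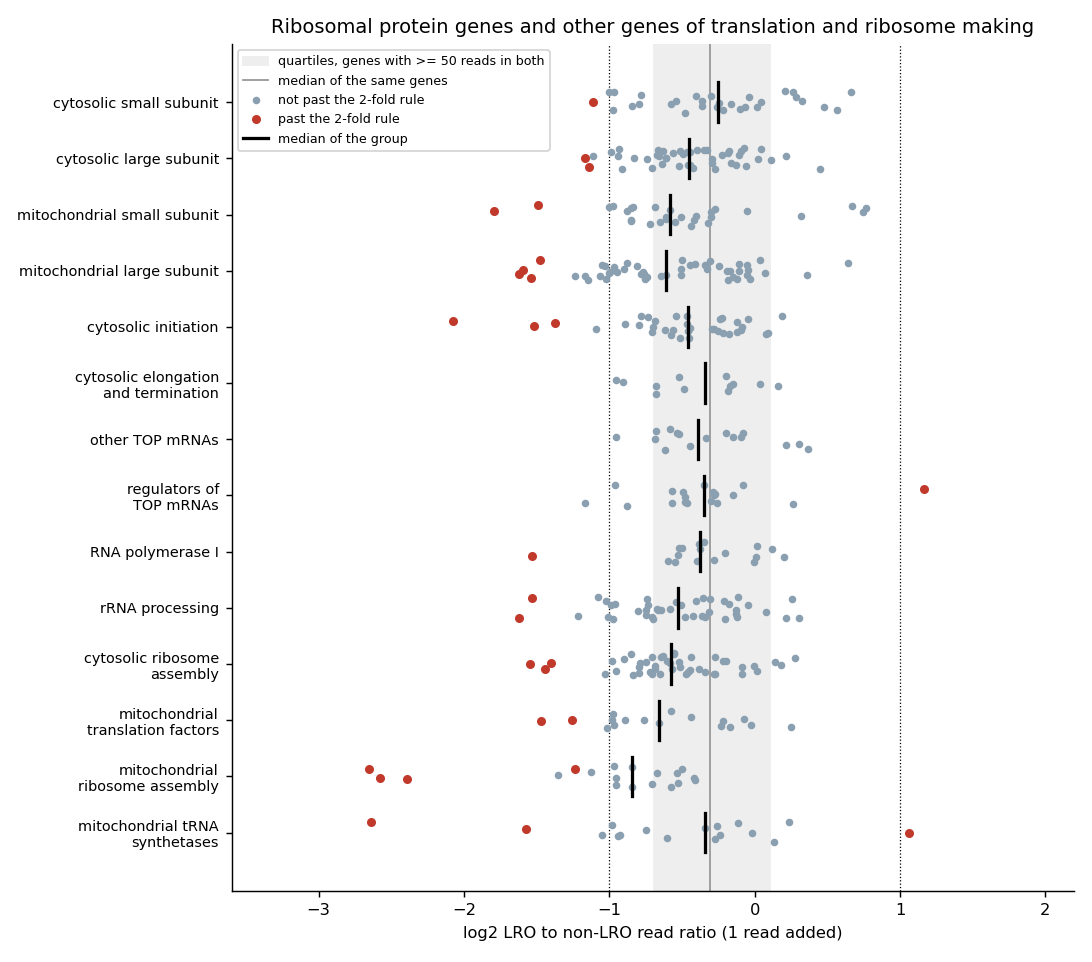
Log2 LRO to non-LRO read ratio (1 read added) of ribosomal protein genes by subunit and of 10 lists of other genes of translation and ribosome making, 1 point per gene; red points are past the 2-fold rule, black bars are medians, and the grey band and line give quartiles and median of the 9894 well-read symbols. Medians run between -0.25 for the small cytosolic subunit and -0.85 for mitochondrial ribosome assembly, and Mycn and Lars2 are the only red points right of 1.

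Both libraries went with their labels at Foxj1, the gene of the sort, which had 194 LRO and 4 non-LRO reads. All 7 genes taken as LRO markers, Foxj1 among them, were higher. Their summed levels were 96.9 RPKM in LRO cells and 19.5 RPKM in non-LRO cells. The paper places Shh and T, also among the 7, in the notochord as well. Other cell types also differed. All 10 erythroid markers were lower, with 7.19 RPKM in LRO cells against 2622 RPKM in non-LRO cells, and Gata1 and Klf1 were at 0 reads in LRO cells. All 10 genes taken as markers of extraembryonic endoderm were lower (8.12 against 122 RPKM), with Afp and Apoa2 at 0 reads in LRO cells. The paper uses Spink1, among these 10, as a general endoderm marker, and likewise Foxa2, among the 7 LRO markers. Also lower were 7 of 8 endothelial markers (9.33 against 46.5 RPKM), with Pecam1 at 0 reads in LRO cells. The other endothelial marker, Etv2, did not pass. Of 7 cardiac and pharyngeal markers 5 were higher (92.9 RPKM in LRO cells against 32.5 RPKM in non-LRO cells). The part of these cell types in the ratios of ribosomal protein genes was not tested.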

How the data were processed

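RNA of 1 LRO and 1 non-LRO pool was amplified with a kit that does not keep strand and sequenced as 50-base reads. The authors used TopHat for alignment and Partek 6.6 for quantification. Estimated counts, as deposited, give each RefSeq transcript its part of the reads, split among overlapping transcripts by the authors. The deposited RPKM values scale those reads to transcript length and library size, and the deposited transcript length is in bases. The deposited chi-square and p-value columns compare the reads of the 2 libraries and were not used, nor were 4 further columns of junction and incompatible RPKM. The LRO column carries no sample label; it was assigned by exclusion, as the labels list no further library, and the study gives these reads to its GFP-positive fraction. The labels name mm10, but table positions exceed its chromosome lengths, so none is printed.

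Reads of 27606 transcripts were summed per symbol, rounded, and scaled to the library totals recovered from RPKM, 30277870 for LRO and 24407299 for non-LRO reads. Ratios carry exact conditional binomial (Clopper-Pearson) 95% intervals (scipy 1.17.1). Amplified reads are not independent molecules, so intervals can be too narrow. Depth was 16672852 LRO and 13418798 non-LRO assigned reads. Log2 ratios add 1 read. A gene was called at a 2-fold bound; symbols with at least 50 reads in both libraries gave the background. The interval procedure was tested on simulated data. TMM factors came from edgeR 4.0.16 and served only as another scaling. No test of the conditions was made. Named genes were, per subunit, all members past the rule, the 3 highest and 3 lowest ratios, the 2 highest and 2 lowest LRO levels, fixed genes, and in other lists the genes past the rule and up to 2 with most reads; Rps2, Rps12, Rps15, Rps21, Rps24, Rps29, Rpl7, Rpl8, Rpl13a, Rpl19, Rpl32, Mrpl2, Mrpl55, Mrpl38, Mrps18a, Mrps18c and Mrps24 were named after their values were seen. Some genes that the rule names are not reported here. The members and lists were chosen with earlier results of these data known. Promoter windows matched by symbol for 56 cytosolic and 69 mitochondrial genes. Shared 50-base windows were counted over all GENCODE M21 transcripts.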

Additional observations from a re-analysis of the deposited data

How the results depend on the processing

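No paired analysis was possible because both conditions rest on a lone library, and no replicate could be left out. The counts of calls depended on the scaling. The background had a median log2 ratio of -0.31 as reported, 0.04 under TMM and 0.00 under the median ratio. For assigned reads without Rn45s and Lars2 it was -0.13. With TMM factors 0 cytosolic, 1 mitochondrial and 6 other translation genes were lower, against 3, 6 and 18 as reported. With the median ratio these counts were 0, 2 and 8. For assigned reads without Rn45s and Lars2 they were 0, 5 and 14, beside 9.775% of all symbols lower. With transcripts in place of symbols 9 of 97 cytosolic and 12 of 97 mitochondrial entries were lower, beside 13.89% of all transcripts. With reads divided by 10 the lower counts were 1 cytosolic, 0 mitochondrial and 6 other genes, and 1 other gene was higher. Of all symbols 1.666% were then lower and 0.8814% higher. A 1.5-fold bound gave 22, 26 and 68 lower, with 1 cytosolic and 1 mitochondrial gene higher. Of all symbols 22.02% were lower and 7.062% higher at that bound. A 4-fold bound gave 0, 0 and 3 lower and 0 higher other genes, beside 3.867% lower and 1.399% higher of all symbols. Class medians were -0.031 (cytosolic) and -0.24 (mitochondrial) under TMM, and -0.074 and -0.29 under the median ratio. Without Rn45s and Lars2 they were -0.20 and -0.41. The ratio of shares was 0.749 (cytosolic) and 0.740 (mitochondrial), 0.811 and 0.801 without Rn45s, 0.850 and 0.839 without Rn45s and Lars2, and 0.850 and 0.823 for summed RPKM. Members with at most 50% shared windows were also taken alone, a choice made after seeing the data as was the sum with copy entries. Of these, 0 of 32 cytosolic genes were lower, at a median of -0.28, and 5 of 73 mitochondrial genes were lower. Among all symbols left in, 12.33% were lower. The cause of these changes was not tested beyond the scaling and the thresholds. Among 101 named genes no call turned to the opposite direction under the alternatives run on single genes, and the relations to length kept their sign.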

Other observations

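The table listed 30 small RNA entries inside 22 members, which are host genes of small nucleolar and other small RNAs. Together these entries held 188 LRO and 324 non-LRO reads, and none had more than 43 LRO or 45 non-LRO reads. On the opposite strand 13 members overlapped another entry, with 7383 LRO and 6270 non-LRO reads in sum, of which Cand2 over Rpl32 had 2937 LRO and 2273 non-LRO reads.

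In Mrpl55 the leading transcript differed between the libraries: the 947-base transcript held 79.1% of 110 LRO reads (exact 95% interval 70.3% to 86.3%) and 20.6% of 126 non-LRO reads (13.9% to 28.7%), and the 968-base transcript held 0% of LRO reads (up to 3.30%) and 56.3% of non-LRO reads (47.2% to 65.2%). The ratio of the whole gene was 0.704 (0.540 to 0.916). In Mrpl48 the 912-base noncoding transcript had 0 LRO and 43 non-LRO reads.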
